A study of Mus musculus with 5 samples.

Results

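The Onecut genes, Onecut1, Onecut2 and Onecut3, were examined for H3K27me3 peaks in mouse molar mesenchyme. They are 3 of the 21938 protein-coding genes of the GENCODE M21 annotation on build GRCm38. Peaks of the 3 deposited lists were taken in each gene body and in windows reaching 5 kb and 20 kb past both of its ends. The genes were chosen because Onecut3 lay in a long run of peaks in both replicates, so the peak counts, covered shares and domain lengths given here describe that choice, and no test was made on them.

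Onecut proteins are transcription factors that bind DNA through a CUT domain and a homeodomain. Onecut1, also known as HNF6, takes part in the development of liver, bile ducts and pancreas. Onecut2 acts beside it in liver and in the retina, and Onecut3 is known mainly from the nervous system and retina. H3K27me3 is trimethylated lysine 27 of histone H3, which Polycomb repressive complex 2 places through the methyltransferase Ezh2. Genes for developmental regulators of other cell types often lie under broad stretches of this mark, with CpG-rich sequence at their 5′ ends.

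Mesenchyme freed of its epithelium was obtained from the molars of C57BL/6 wildtype mice at postnatal day 3 and used for ChIP-seq, with no deletion or treatment named for any group. There were 2 H3K27me3 libraries, 2 input libraries (chromatin without an antibody step) and 1 IgG library (a nonspecific antibody). Nothing in the labels ties the H3K27me3 libraries to animals or pools, so an SD here is the spread between 2 libraries, which may be technical. Replicate 1 was called against its input and against IgG, and replicate 2 against its own input. The IgG-called list rests on the same immunoprecipitated library as replicate 1, so it is not a further replicate and its values are given beside the others.

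The lists held 22757 peaks for replicate 1 against input, 24881 against IgG and 33379 for replicate 2. The H3K27me3 libraries had 31245609 and 50565700 tags, of 49 bp and 74 bp, and depth, tag length and replicate cannot be told apart. The lowest mean pileup, the number of overlapping tags in a peak, stood for 4 tags in both replicate 1 lists and 6 tags in replicate 2. A peak at an Onecut gene therefore rests on few tags, and the position of any 1 peak is subject to counting error.

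Each Onecut gene had peaks in all 3 lists within 5 kb of its body. A peak in both replicates within 5 kb was found for 3 of the 3 genes and for 15.7% of all protein-coding genes. By list, 25% of all genes had such a peak in replicate 1, 25.9% in the IgG-called list and 35.7% in replicate 2. Since the genes were picked on these peaks, nothing is read from that contrast. At Onecut1 there were 10 peaks in replicate 1, 8 in the IgG-called list and 5 in replicate 2. The corresponding numbers were 11, 13 and 3 at Onecut2 and 11, 12 and 9 at Onecut3. Replicate 2 thus held fewer peaks than replicate 1 at each gene, although its whole list was longer, and the gap was widest at Onecut2. At least 4 peaks in both replicates were present at Onecut1 and Onecut3 and not at Onecut2, compared with 2.53% of all genes.

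**Figure D1:**
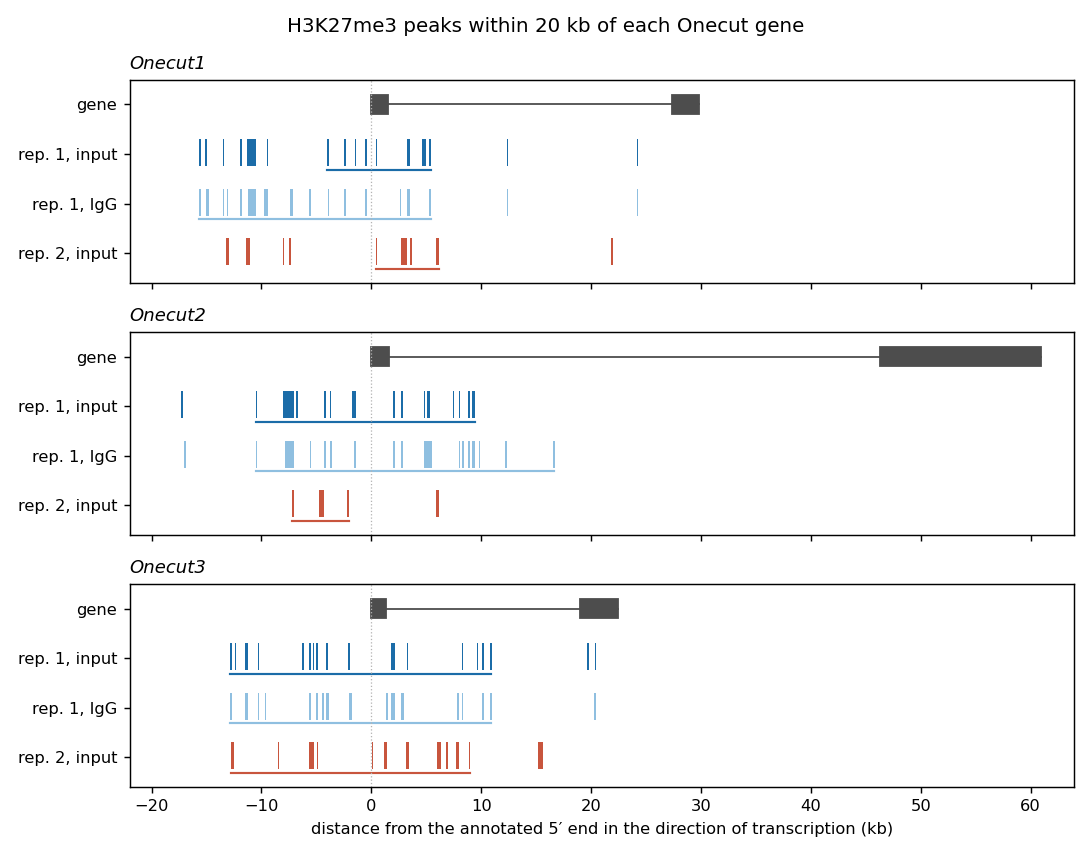
H3K27me3 peaks (bars) by distance from the annotated 5′ end, in kb along the direction of transcription, within 20 kb of each Onecut gene, with the longest merged domain as a line under each list and exons as boxes. Peaks of all lists gather around the 5′ part of each gene, the 3′ part of Onecut2 is empty, and the domain lines at Onecut3 span 23.7, 23.7 and 21.8 kb.

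The share of bases covered by peaks ordered the genes as Onecut3, Onecut1 and Onecut2. Within 5 kb, peaks covered 5.47% of the Onecut3 window in replicate 1, 7.06% in the IgG-called list and 6.09% in replicate 2. The mean of the libraries against input was 5.78% ± 0.44 (SD, n = 2). At Onecut1 the shares were 2.99%, 2.01% and 3.53%, with a mean of 3.26% ± 0.38 (SD, n = 2). At Onecut2 they were 2.81%, 3.78% and 1.17%, with a mean of 1.99% ± 1.16 (SD, n = 2). By share, Onecut3 lay above both other genes in every list. Onecut1 and Onecut2 were not separated by share, since their ranges of mean ± SD overlapped and Onecut2 was the higher in the IgG-called list. The windows differ in length, at 32.4 kb for Onecut3, 39.9 kb for Onecut1 and 71.0 kb for Onecut2. By covered bases Onecut2 was highest in replicate 1, with 1993 bp against 1773 bp at Onecut3 and 1193 bp at Onecut1. Onecut2 was also highest in the IgG-called list, at 2683 bp against 2291 and 800 bp. In replicate 2 it was lowest, at 830 bp against 1976 and 1408 bp. By mean share Onecut3 ranked 164, Onecut1 266 and Onecut2 451 among the 21938 genes. With 20 kb on each side the means were 4.34% ± 0.13, 3.57% ± 0.41 and 2.24% ± 1.74 (SD, n = 2) in the same order. A peak within 20 kb was present at 3 of the 3 genes in each list, and at 37.4%, 39.2% and 52.7% of all genes in replicate 1, the IgG-called list and replicate 2 and 25.7% in both replicates. The wider window lowered the value of Onecut3 and left Onecut1 within its spread.

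All 3 genes have the same simple plan in the annotation, with 2 exons on the plus strand and 1 coding transcript. The body of each gene held a peak in every list, as did those of 19.3%, 20.1% and 28.5% of all genes in replicate 1, the IgG-called list and replicate 2 and 12.3% in both replicates. In none of them did any list hold a peak in the 20 kb past the 3′ end. No list had a peak there at 66% of all genes. Each gene had peaks in the 20 kb before its 5′ end in every list, as did 4.62% of all genes, from 3 at Onecut2 in replicate 2 to 12 at Onecut1 in the IgG-called list.

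Onecut1 (ENSMUSG00000043013.10) lies at chr9:74861921-74891781 and spans 29.9 kb, of which the intron takes 25.9 kb. Most of its peaks lay upstream or within about 6 kb past the 5′ end, and a few lay farther into the intron, 12.4 and 24.2 kb past the 5′ end in both replicate 1 lists and 21.9 kb past it in replicate 2. In replicate 1, 6 peaks lay between 5 and 20 kb upstream and 10 within 5 kb of the gene, and in replicate 2 the numbers were 4 and 5. The longest was an upstream peak of 838 bp in replicate 1, longer than 99.9% of the peaks of its list, at chr9:74850567-74851404, and a 364 bp peak of replicate 2 overlapped it by 337 bp. Its pileup was 3.70 in replicate 1 and that of the overlapping peak 6.77 in replicate 2. Only 1 other stretch near Onecut1 was called in both replicates. It covered 60 bp of coding sequence in exon 1, from 384 to 443 bp past the 5′ end. The IgG-called list had no peak there.

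The upstream peaks of Onecut1 also lay over non-coding genes. Gm20649, annotated as a lincRNA on the same strand, runs from chr9:74848463 to 74891476 and so covers nearly the whole of Onecut1 and part of its upstream flank. It held 14, 15 and 9 peaks in replicate 1, the IgG-called list and replicate 2, while Gm16551 held 6, 9 and 4. A ChIP-seq peak has no strand, so peaks in the shared positions cannot be assigned to Onecut1 or to Gm20649.

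The 5′ end of Onecut1 was the only one of the 3 with a peak within 1 kb in both replicates, a feature of 1.04% of all genes. Replicate 1 had 2 peaks there, the IgG-called list had 1 and replicate 2 had 1, where 3.87%, 4.52% and 4.16% of all genes had any. The nearest lay 384 bp downstream in replicate 1, 464 bp upstream in the IgG-called list and 380 bp downstream in replicate 2. In replicate 1 against input the promoter lay between a peak upstream and a peak downstream. Replicate 2 had no peak in the 5 kb before the 5′ end. Its nearest upstream peak lay in the bin from 10 to 5 kb upstream, so the gap there was wider. No list had a peak in the 250 bases directly before the 5′ end. Of the 3 genes, Onecut1 matched the RefSeq promoter table (GRCm38.p6). Those 250 bases, chr9:74861671-74861920 on the plus strand, are shown because they are CpG-rich and had no peak in any list. They are followed by the 60 bases of exon 1, chr9:74862305-74862364, called in both replicates. Capitals mark the dinucleotide CG, which reads the same on both strands.
Onecut1 promoter: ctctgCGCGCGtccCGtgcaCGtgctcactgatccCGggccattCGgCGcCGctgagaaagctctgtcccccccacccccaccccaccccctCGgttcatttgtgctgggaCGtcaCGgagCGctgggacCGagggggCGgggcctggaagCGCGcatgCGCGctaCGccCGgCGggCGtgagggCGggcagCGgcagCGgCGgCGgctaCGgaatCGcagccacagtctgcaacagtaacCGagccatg
Onecut1 exon 1: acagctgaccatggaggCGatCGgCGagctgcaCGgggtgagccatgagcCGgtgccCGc
The promoter window held 31 CG dinucleotides at a GC content of 71.6%. At least as many were found in 5.19% of the 32851 promoters of the table cut to the same length. The 60 bases of exon 1 held 6 CG dinucleotides, or 10 per 100 bases, at 70% GC. Both sequences shown for Onecut1 are thus rich in CG, the promoter without a peak and the exon with a peak in both replicates.

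Onecut2 (ENSMUSG00000045991.19) lies at chr18:64340020-64400987 and is the longest of the genes, at 61.0 kb with an intron of 44.7 kb. It was the gene on which the replicates differed most. Replicate 1 covered 2.40 times the share that replicate 2 covered. Of its 61.0 kb, only the 5′ part carried peaks. The last peak in the body ended 51.5 kb before the 3′ end in replicate 1, 44.3 kb before it in the IgG-called list and 54.8 kb before it in replicate 2. Replicate 2 had 1 peak inside the gene, in the intron about 6.03 kb past the 5′ end, where replicate 1 had 8 and the IgG-called list 10, all of them intronic.

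At the 5′ end of Onecut2 no list had a peak within 1 kb. Of all genes, 3.87% had one in replicate 1, 4.52% in the IgG-called list and 4.16% in replicate 2. The nearest peaks lay 1416 bp upstream in both replicate 1 lists and 2056 bp upstream in replicate 2. On the other side the next peak began 1979 bp downstream in both replicate 1 lists and 5906 bp downstream in replicate 2. The 5′ end thus lay between peaks in each list, and the lack of a peak within 1 kb is shared with most genes. The only bases called in both replicates near Onecut2 were a stretch of 179 bp upstream, chr18:64332761-64332939. It lay inside a 991 bp peak of replicate 1 that was longer than 99.99% of the peaks of its list. The same stretch lies in St8sia3os, a non-coding gene annotated as antisense, which runs from chr18:64157721 to 64333706. Peaks there cannot be assigned to Onecut2 or to St8sia3os.

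Onecut3 (ENSMUSG00000045518.8) lies at chr10:80494835-80517276 and is the shortest, at 22.4 kb with an intron of 17.7 kb. Its peaks were spread over the upstream flank and the gene in both replicates. Within 20 kb there were 18 peaks in replicate 1, 17 in the IgG-called list and 12 in replicate 2, of which 10, 9 and 4 lay upstream and 8, 8 and 8 in the gene body. The number inside the gene was equal in the 3 lists, and the upstream number was lower in replicate 2. In replicate 1, 2 peaks lay in the untranslated part of exon 2, and replicate 2 had none in that exon.

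The 5′ end of Onecut3 had a peak within 1 kb in replicate 2, 65 bp downstream and over the start of the coding sequence. In replicate 1 the nearest peak was 1805 bp downstream, in the intron, and in the IgG-called list it was 1363 bp downstream. So the call at this 5′ end rests on replicate 2. With the window widened to 5 kb on each side of the 5′ end, all 3 genes had peaks in each list, as did 11.7%, 12.5% and 13.2% of all genes in replicate 1, the IgG-called list and replicate 2 and 4.31% in both replicates.

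Peaks up to 5 kb apart were merged into domains. At Onecut3 the domain was 23.7 kb long in replicate 1, with 16 peaks, 23.7 kb in the IgG-called list, with 16, and 21.8 kb in replicate 2, with 11. The stretch common to both replicates was chr10:80482022-80503787, from 12.8 kb before to 8.95 kb after the 5′ end, so that more of it lay upstream than in the gene. Of 12 such stretches shared by domains of 20 kb or more in both replicates, it ranked 10 by length. The next longer with a single gene was at Nkx6-1 (21.9 kb), a homeobox gene of pancreas and ventral spinal cord, and the next shorter at Pax5 (17.7 kb), a gene of B cells and the midbrain. A domain of 20 kb or more in both replicates was present near 0.128% of all genes, and in replicate 1 and replicate 2 alone near 0.438% and 0.164%. Without the peaks at the lowest pileup of each list, the Onecut3 domain shrank to a mean of 11.95 ± 4.34 kb (SD, n = 2), under 20 kb.

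The domains of the other genes differed between lists. At Onecut2 the domain measured 20.01 kb in replicate 1, just inside the length of 20 kb, 27.2 kb in the IgG-called list and 5.20 kb in replicate 2. At Onecut1 it measured 9.40, 21.1 and 5.75 kb. Onecut1 thus passed 20 kb in the IgG-called list and in neither input-called list, and only Onecut3 passed it in all 3.

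**Figure D2:**
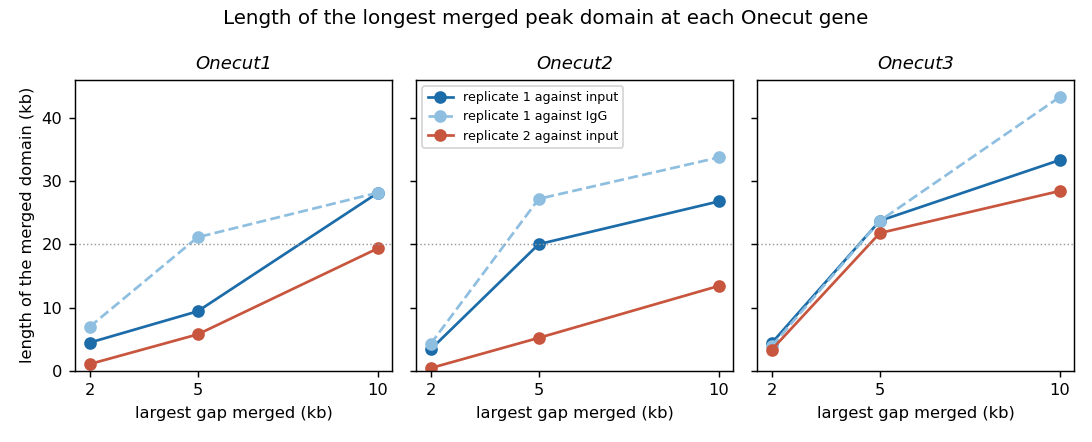
Length in kb of the longest merged peak domain within 5 kb of each Onecut gene against the largest gap merged, in kb, with a point per list and a dotted line at 20 kb. At gaps up to 5 kb the Onecut3 points lie at 23.7, 23.7 and 21.8 kb, above the line, while those of Onecut1 and Onecut2 are spread from 5.75 to 21.1 kb and from 5.20 to 27.2 kb.

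The merging distance set the lengths. With gaps up to 2 kb, the Onecut3 domain was 4.37 kb in replicate 1 and 3.32 kb in replicate 2, compared with 4.44 and 1.05 kb at Onecut1 and 3.38 and 0.42 kb at Onecut2. With gaps up to 10 kb the domains grew to 33.3 and 28.4 kb at Onecut3, 28.1 and 19.4 kb at Onecut1 and 26.8 and 13.4 kb at Onecut2. Onecut3 had the longest domain of the 3 in replicate 2 at each distance, whereas in replicate 1 Onecut1 was slightly longer at 2 kb. In the IgG-called list at 2 kb Onecut3 had the shortest, at 3.89 kb compared with 6.93 kb at Onecut1 and 4.23 kb at Onecut2.

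Bases called in both replicates were counted within 20 kb. At Onecut3 they came to 575 bp, which were 21.7% of the replicate 1 peak bases and 20.8% of those of replicate 2. At Onecut1 there were 397 bp, or 14.7% and 17.3%, and at Onecut2 179 bp, or 5.11% and 17.5%. Over the whole genome 2.35% of replicate 1 peak bases and 1.09% of replicate 2 peak bases were shared. Since the genes were chosen on peaks of both replicates, nothing is read from the difference to the genome. Most peak bases at each gene were called in only 1 replicate. The median gap from a replicate 2 peak to the nearest replicate 1 peak, with overlap as 0, was 224 bp at Onecut1, 170 bp at Onecut2 and 452 bp at Onecut3. From replicate 1 peaks to the nearest replicate 2 peak it was 1109 bp, 1255 bp and 565 bp, so that the order of the genes was not the same in both directions.

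At Onecut3 there were 5 stretches called in both replicates. They are shown because they are the bases on which the replicates overlap inside the long domain, 4 upstream of the gene and the last in its intron, read on the plus strand of GRCm38.p6 with CG in capitals. In order along chromosome 10 they are chr10:80482022-80482197, chr10:80489188-80489280, chr10:80489521-80489580, chr10:80489893-80490002 and chr10:80498056-80498191.
Onecut3 stretch 12.8 kb upstream: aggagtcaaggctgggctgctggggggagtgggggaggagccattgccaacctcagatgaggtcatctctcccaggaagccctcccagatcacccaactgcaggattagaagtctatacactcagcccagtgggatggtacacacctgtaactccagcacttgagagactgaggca
Onecut3 stretch 5.65 kb upstream: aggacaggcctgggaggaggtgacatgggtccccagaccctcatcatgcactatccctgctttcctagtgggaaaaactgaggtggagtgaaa
Onecut3 stretch 5.31 kb upstream: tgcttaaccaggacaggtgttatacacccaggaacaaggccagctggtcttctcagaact
Onecut3 stretch 4.94 kb upstream: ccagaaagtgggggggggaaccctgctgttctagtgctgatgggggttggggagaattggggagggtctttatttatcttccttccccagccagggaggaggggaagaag
Onecut3 intron stretch: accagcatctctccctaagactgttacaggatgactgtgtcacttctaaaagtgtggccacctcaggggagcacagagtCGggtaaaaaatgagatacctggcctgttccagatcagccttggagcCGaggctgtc
The 4 upstream stretches held 0 CG dinucleotides, and the intron stretch held 2 in 136 bases. Their GC content was between 50% and 57.3%. The exon 1 stretch of Onecut1 printed above held 6 in 60 bases, and the longer upstream stretch of Onecut1 held 4 in 337 bases at 44.2% GC. The stretch 5.65 kb upstream held the peak with the highest −log10 p at any Onecut gene, 3.81 in replicate 1 with a pileup of 5.06 and a fold enrichment of 3.46, and it was also in the IgG-called list. In replicate 2 the overlapping peak had a fold enrichment of 2.54 and a −log10 p of 2.72.

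CpG-rich sequence was found at the 5′ end of each gene. Within 1 kb of the 5′ end the GC content was 62.3% at Onecut1, 61.3% at Onecut2 and 63.5% at Onecut3, compared with a median of 51.2% over all protein-coding genes. The CG density there, 6.40, 7.50 and 6.90 per 100 bp, lay at percentiles 88.5, 94.1 and 91.5. CpG-rich stretches were defined by windows of 200 bp with at least 50% GC and an observed to expected CG ratio of at least 0.6, joined where they overlapped. The stretch over the 5′ end was 2840 bp long at Onecut1, 1850 bp at Onecut2 and 2000 bp at Onecut3. That of Onecut1 met 2, 1 and 1 peaks in replicate 1, the IgG-called list and replicate 2, and that of Onecut3 met 1, 2 and 2. The stretch over the 5′ end of Onecut2 met 0 peaks in each list.

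The genes differed in how much of their peak sequence was CpG-rich. At Onecut2 the CpG-rich stretches made up 7.91% of the window with 20 kb on each side and held 46.3% of peak bases in replicate 1, 44.6% in the IgG-called list and 43.8% in replicate 2. At Onecut1 they made up 13.8% of the window and held 19.6%, 29.9% and 49.4%. At Onecut3 they made up 15.5% of the window and held 6.91%, 12.5% and 19.2%. Less than 50% of peak bases at each gene lay on such stretches in every list. At Onecut1 and Onecut2 the share of peak bases was above the share of the window in each list. At Onecut3 it was below it in both replicate 1 lists and above it in replicate 2. The median GC content of Onecut3 peaks was 56.4%, 56.4% and 56.7% in the 3 lists, compared with 46.4%, 46.9% and 45.1% over all peaks of each list, and the window around Onecut3 was itself at 53.7% GC. The part of base composition in these peaks was not tested.

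**Figure D3:**
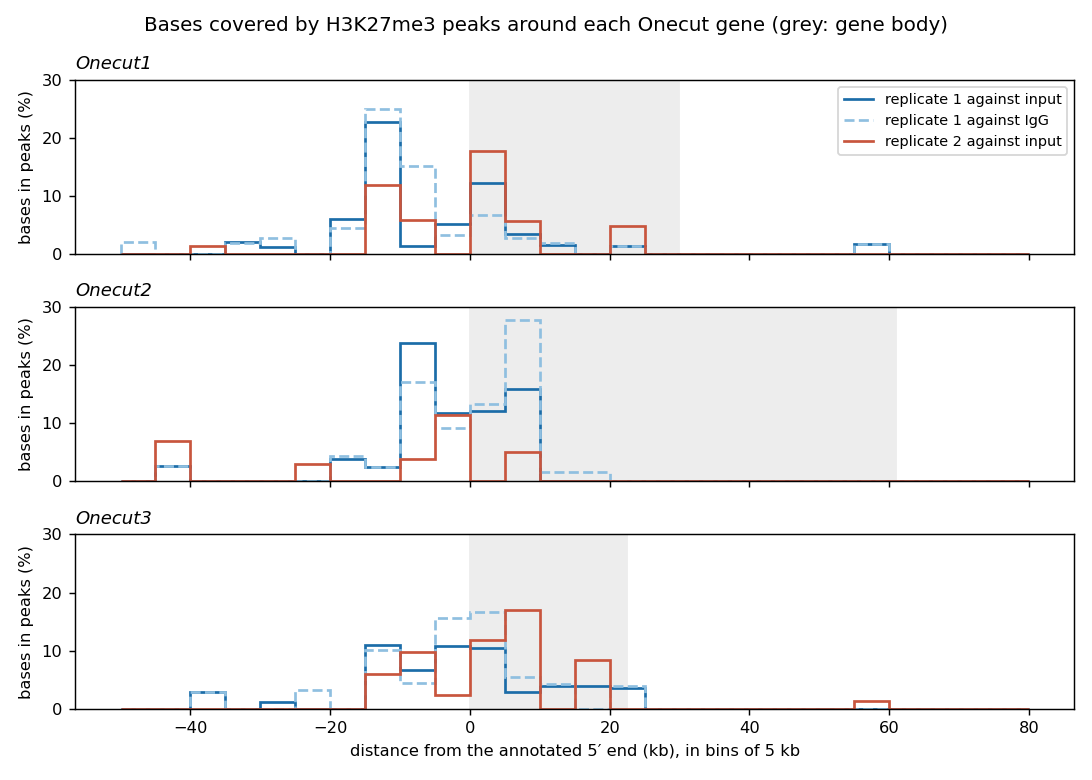
Percent of bases covered by peaks in bins of 5 kb from 50 kb before to 80 kb after the annotated 5′ end of each Onecut gene, with a line per list and the gene body in grey. The highest bins reach 24.9% at Onecut1, 27.9% at Onecut2 and 17.1% at Onecut3, all within 15 kb of the 5′ end.

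Coverage rose and fell over a short distance around each 5′ end. In the bin from 15 to 10 kb upstream of Onecut1, peaks covered 22.7% of bases in replicate 1, 24.9% in the IgG-called list and 11.8% in replicate 2. The bin from the 5′ end to 5 kb downstream held 12.3%, 6.68% and 17.8%. Of the bins between these, the one from 10 to 5 kb upstream held 1.44%, 15.2% and 5.86%, and the 5 kb before the 5′ end held 5.20%, 3.36% and 0%. In both replicates these lay below the outer bins, and the replicates differed in which outer bin was the higher. In the IgG-called list the bin from 10 to 5 kb upstream was above the downstream one. At Onecut2 the highest bins of the replicate 1 lists were those from 10 to 5 kb upstream, where the 3 lists had 23.9%, 17.0% and 3.82%, and from 5 to 10 kb downstream, with 15.98%, 27.9% and 5.12%. The highest bin of replicate 2 was the 5 kb before the 5′ end, with 11.5%, where the other lists had 11.8% and 9.18%. The 5 kb directly downstream of its 5′ end held 12.1% and 13.3% in the replicate 1 lists and 0% in replicate 2. Onecut3 was covered without an empty bin, with 2.34% to 17.1% of bases in peaks in every bin from 15 kb upstream to 10 kb downstream in all lists. Its highest bin differed between the replicates, at 10.9% from 15 to 10 kb upstream in replicate 1 and 17.1% from 5 to 10 kb downstream in replicate 2. Pooled from 50 to 20 kb before the 5′ ends, the share was at most 1.67% at any of the genes, although the Onecut2 bin from 45 to 40 kb upstream reached 6.96% in replicate 2. Pooled from 30 to 80 kb past the 5′ ends it was at most 0.17%.

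The peaks were weak by fold enrichment, the ratio of pileup to the control background with 1 added to both. Within 20 kb, values ran from 2.51 to 3.60 at Onecut1 in replicate 1, from 2.60 to 3.09 at Onecut2 and from 2.57 to 3.46 at Onecut3. In replicate 2 they ran from 2.42 to 2.59, from 2.40 to 2.799 and from 2.40 to 3.03. The medians at the 3 genes, 2.77, 2.82 and 2.75 in replicate 1 and 2.47, 2.45 and 2.50 in replicate 2, were close to the medians of the whole lists, 2.63 and 2.45. The added 1 lowers the ratio most where the background is low, so values of the replicates are not compared with each other. The strongest Onecut1 peak in replicate 1, with a fold enrichment of 3.60 and a −log10 p of 3.57, was 50 bp long and lay 2.43 kb upstream, and the IgG-called list had a peak of 3.05 there. The nearest replicate 2 peak was 2783 bp away. The Onecut2 peak with the highest −log10 p, 3.25 at a fold enrichment of 2.799, was a 420 bp peak of replicate 2 that lay 4.56 kb upstream and 29 bp from a replicate 1 peak. At Onecut3 the strongest replicate 2 peak, with 3.03 and a −log10 p of 3.67, was 73 bp long and lay 8.48 kb upstream, 1732 bp from the nearest replicate 1 peak. The strongest peaks of Onecut1 in replicate 1 and of Onecut3 in replicate 2 were thus short and were not called in the other replicate. No Onecut peak stood for more than 7.78 tags.

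**Figure D4:**
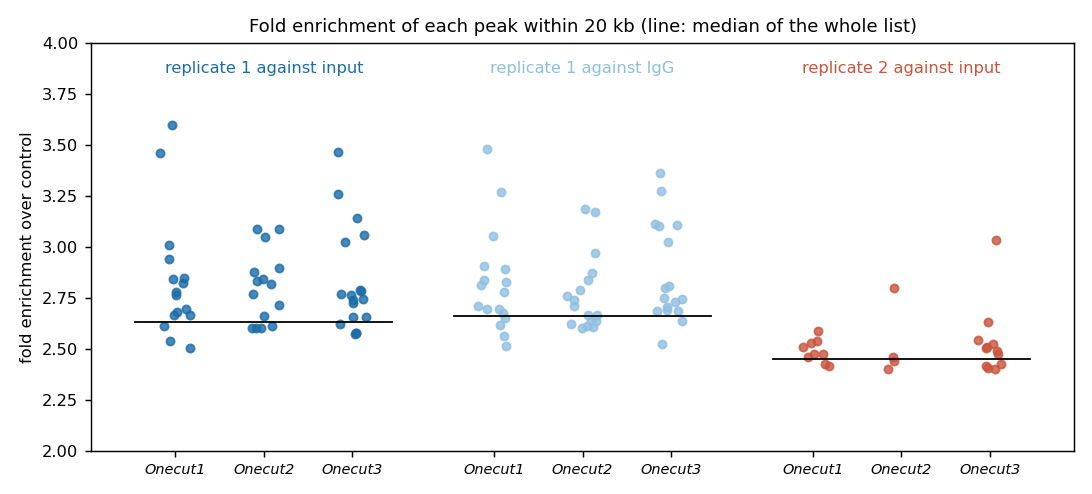
Fold enrichment over control of every peak within 20 kb of each Onecut gene, by list, with a line at the median of the whole list. Points are spread sideways for clarity, and all lie between 2.40 and 3.60 around list medians of 2.63, 2.66 and 2.45.

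The protein-coding neighbours had lower covered shares than the Onecut gene beside them, by the mean of both replicates. The nearest ones to Onecut1 on each side were Wdr72, 579 kb before it, with a mean share of 0.34% ± 0.043 (SD, n = 2), and Fam214a, 61.1 kb after it, with 0 peaks in each list. Next on each side were Unc13c, at 0.18% ± 0.17, and Arpp19, with 0 peaks. Of these genes, only Onecut1 was covered at more than 1%. Beside Onecut2, St8sia3, a sialyltransferase gene 60.4 kb before it, had 2, 4 and 3 peaks and a share of 1.72% ± 0.98 (SD, n = 2), close to that of Onecut2. The others there were Wdr7 at 0.31% ± 0.22, Fech, the ferrochelatase gene, with 1 peak in replicate 2, and Nars with 0 peaks. At Onecut3 the genes before it, Tcf3 and Uqcr11, had 0 peaks in each list. After it came Atp8b3, 2.31 kb away, whose body held 0 peaks, and Rexo1, with 1 peak in replicate 2. The 2 replicate 1 peaks counted within 5 kb of Atp8b3 are those in exon 2 of Onecut3. No list had a peak in the body of the gene next to Onecut3 on either side.

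Cux1, Cux2 and Satb1, which also encode CUT domain proteins, had lower shares than each Onecut gene. Cux2 was covered at 0.40% ± 0.17 (SD, n = 2), Cux1 at 0.26% ± 0.33 and Satb1 at 0.11% ± 0.15. Cux1 and Cux2 had peaks in both replicates, while Satb1 had them in replicate 1 and not in replicate 2. The least covered Onecut gene, Onecut2, was thus above each of these genes by mean share. A share is taken over the whole window, and the bodies of these genes are longer than that of Onecut2. In replicate 1 Onecut2 had 11 peaks within 5 kb, against 1 at Cux1, 7 at Cux2 and 3 at Satb1. In replicate 2 Onecut2 had 3, against 10, 4 and 0.

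Onecut proteins act with other regulators in liver, pancreas and neurons. The counts of the gene lists stand beside 15.7% of all protein-coding genes with a peak within 5 kb in both replicates. Covered more means a higher mean share, which depends on gene length as well as on peaks. Each gene named in this paragraph as covered more than Onecut3 has a shorter body than Onecut3. Of 25 liver and pancreas genes, 15 had a peak within 5 kb in both replicates and the median share was 1.02%, against 3.26% for the Onecut genes and 0% over all protein-coding genes. In this list 8 genes were covered more than Onecut3, led by Nkx6-1 (11.2% ± 3.07, SD, n = 2), the pancreatic regulators Pdx1 (10.8% ± 0.17) and Ptf1a (10.1% ± 3.45), and Mnx1 (8.61% ± 1.51). The genes for liver products in it were lower, at most 0.72% by mean share. Cyp7a1 and Ttr had 0 peaks in each list, and in each list most genes had none. Alb had 2 peaks in both replicate 1 lists, Afp and Pck1 had 1 each in replicate 2, and G6pc had 1 in the IgG-called list. Of 24 neural and retinal genes, 4 of which are also in the liver and pancreas list, 20 had a peak in both replicates, with a median of 7.82%. In it 13 were covered more than Onecut3, led by Olig2 (16.5% ± 7.58), Evx1 (14.4% ± 5.99), Neurog2 (13.3% ± 10.1) and Otx2 (12.03% ± 2.48). The Onecut genes lay between the medians of these lists.

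**Figure D5:**
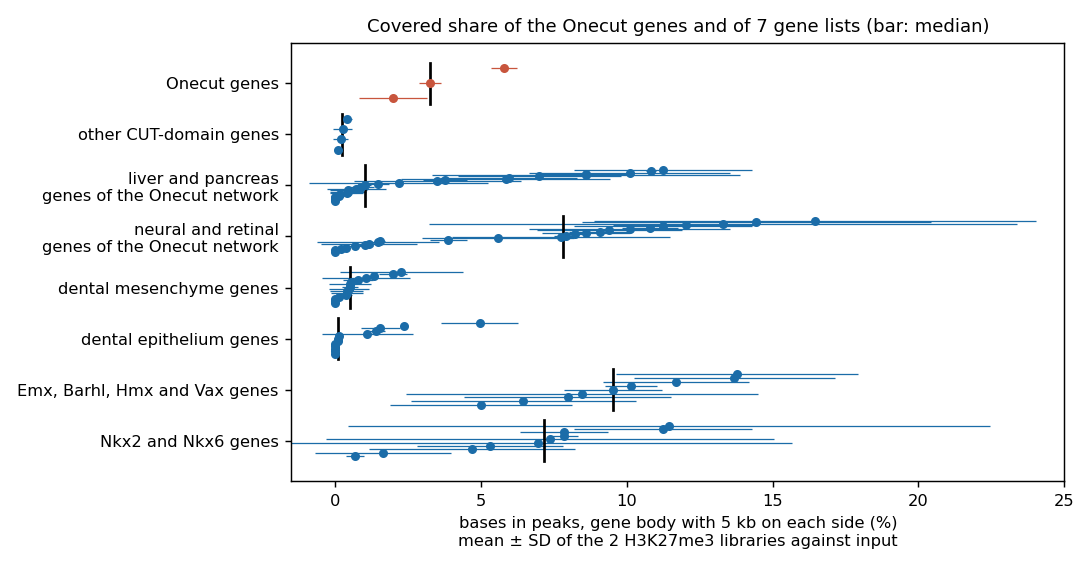
Percent of bases in peaks within 5 kb of the gene body, mean ± SD of 2 H3K27me3 libraries against input, with a point per gene and a bar at the median of each list. The Onecut genes (red) lie at 5.78%, 3.26% and 1.99%, above the medians of the dental lists and below those of the Emx and Nkx lists.

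By the mean of both replicates, genes of the tooth itself were covered less than Onecut3. In the dental mesenchyme list 8 of 16 had a peak in both replicates, and 3 of 16 without the peaks at the lowest pileup. Under that limit the liver and pancreas list had 14 of 25, the neural and retinal list 19 of 24 and the dental epithelium list 4 of 13. The Emx, Barhl, Hmx and Vax list had 9 of 9 and the Nkx2 and Nkx6 list 9 of 10. The share of all genes under that limit was not computed, so nothing is read from these counts. The median share was 0.49%, and 1 was covered more than Onecut2, namely Barx1 (2.26% ± 2.104, SD, n = 2). Counting only genes called in both replicates, it was followed by Pax9 (1.98% ± 0.47), Twist1 (1.32% ± 0) and Lhx6 (0.80% ± 0.52). In the dental epithelium list 5 of 13 had a peak in both replicates and the median was 0.092%, with Sox2 (4.95% ± 1.31), Foxi3 (2.36% ± 0.13) and Shh (1.39% ± 0.31) among the most covered. None of these dental genes exceeded Onecut3 by mean share. Sox2 was above Onecut3 in replicate 1, at 5.88% against 5.47%, and in the IgG-called list, at 10.2% against 7.06%. In replicate 2 Sox2 was lower, at 4.02% against 6.09%. These lists hold no expression values, so the labelled tissue could not be checked by RNA of its marker genes.

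The 2 homeobox lists used for comparison hold genes of other long domains. All 9 Emx, Barhl, Hmx and Vax genes had a peak in both replicates, with a median of 9.52%, and 8 of them were covered more than Onecut3, led by Vax1 (13.8% ± 4.14, SD, n = 2), Emx2 (13.7% ± 3.45), Hmx1 (11.7% ± 2.51) and Barhl2 (10.1% ± 0.89). Among 10 Nkx2 and Nkx6 genes, 9 had a peak in both replicates, with a median of 7.15%, and 6 were covered more than Onecut3, led by Nkx2-3 (11.4% ± 11.02), Nkx6-1, Nkx2-1 (7.85% ± 1.504) and Nkx2-5 (7.84% ± 0.50). Onecut3 and Nkx6-1 had shared stretches of 21.8 and 21.9 kb. In replicate 1 the domain of Onecut3 was the shorter, at 23.7 kb with 16 peaks, compared with 29.3 kb and 21 peaks at Nkx6-1. The mean covered shares were 5.78% at Onecut3 and 11.2% at Nkx6-1. A share depends on gene length, and the genes named here have shorter bodies than Onecut3. Within 5 kb Onecut3 had 11, 12 and 9 peaks in the 3 lists, and Nkx6-1 had 10, 10 and 7.

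The genes most like each member were found by the distance between their covered shares in the 3 lists, in percentage points. They were Pmaip1 (0.31), Adra2b (0.33) and Mt1 (0.85) for Onecut1. For Onecut2 they were Gcgr (0.38), 1110032F04Rik (0.39) and Phospho1 (0.48). For Onecut3 they were Prdm8 (1.17), Fezf2 (1.73) and Nkx3-2 (1.86). Prdm8, with 10, 14 and 8 peaks, also came close to Onecut3 in peak number. Mt1, with 1 peak in each list, matched Onecut1 in share and not in number of peaks, since its window is shorter. The distance uses 3 shares, of which 2 come from the same immunoprecipitated library.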

How the data were processed

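H3K27me3 ChIP-seq peaks of postnatal day 3 molar mesenchyme were analysed from 2 H3K27me3 libraries, with 2 input libraries and 1 IgG library as controls. The authors mapped reads with BWA to GRCm38 and used those with a unique position, and broad peaks were called with MACS, version 2.1.1.20160309, at a p-value cutoff of 0.005, for each library alone. The deposited pileup is a signal in scaled tags, the deposited fold enrichment is a ratio with a pseudocount of 1, and the deposited p-values are given as −log10. The −log10 q column was not used, since the deposited headers state that no q-value was computed in broad mode. The other formats of the lists were not used. No column belonged to another sample.

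Peaks overlapping a window by at least 1 base were counted with Python 3.11.15, pandas 2.3.3 and NumPy 2.4.6 against GENCODE M21, and peaks up to 5 kb apart were merged into domains. Counting was tested on simulated peaks. Means are over the 2 libraries against input. The named genes were the 3 Onecut genes, other CUT domain genes, the 4 most covered genes of each list with peaks in both replicates, 2 neighbours on each side, the 3 most alike genes, and the single-gene shared stretches next in length to that of Onecut3, and some of these are not reported here. The members and lists were chosen with earlier results of these data known, so no test was made. Alternatives changed the window, peak strength, control, merging distance and libraries. Figures were drawn with matplotlib 3.10.9.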

Additional observations from a re-analysis of the deposited data

How the results depend on the processing

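No paired analysis was possible because no result came from a test. Averaged over the 3 genes, the covered share was 3.68%, and it was 3.38% with 20 kb on each side, 4.05% in the gene body, 3.06% without peaks at the lowest pileup, 3.23% with replicate 2 reduced to the peak number of replicate 1, 3.94% with replicate 1 called against IgG, 0.642% at a fold enrichment of 3 or higher and 0.338% at a −log10 p of 3 or higher. Leaving out a replicate gave 3.60% to 3.76%. Onecut3 had the highest share in 10 of 10 settings, and Onecut1 lay above Onecut2 in 8, the exceptions being both strength limits. All settings reuse the peaks on which the genes were chosen, so this order is a description. At the fold limit replicate 2 had no peak within 5 kb of any Onecut gene. At the −log10 p limit the shares of Onecut1 and Onecut3 came from replicate 1 and that of Onecut2 from replicate 2, so the order there compares different libraries. The mean number of peaks within 5 kb, 8.17, became 12.3 with 20 kb, 1.67 at the fold limit, 0.833 at the −log10 p limit, and 5.67 to 10.7 with a replicate left out. Onecut genes with a peak within 1 kb of the 5′ end in both replicates numbered 1, but 3 with 5 kb and 0 at either strength limit. Whatever the other replicate showed, 1 had such a peak in replicate 1 and 2 in replicate 2. The mean domain length, 14.3 kb, became 2.83 kb with gaps up to 2 kb, 24.9 kb with gaps up to 10 kb, and 10.9 to 17.7 kb with a replicate left out. Of 96 genes in the other lists, 63 had a peak within 5 kb in both replicates, beside 15.7% of all protein-coding genes. Whatever the other replicate showed, 73 had one in replicate 1, beside 25% of all genes, and 72 in replicate 2, beside 35.7%. The lists were chosen with earlier results of these data known, so nothing is read from these counts. The causes were not tested. With peaks of 4 to 7.78 tags, a stretch without a peak is not shown to lack H3K27me3.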
